A study of Homo sapiens with 6 samples.

Results

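The genes described here are the noncoding RNA genes that the sequencing detected well in U87 cells, an established human glioblastoma line. They were chosen by abundance: RefSeq accessions that begin NR_, with a base mean of at least 50 in the authors' deposited table, reduced to 1 accession per gene after genes annotated as protein-coding were dropped. Of 15949 such accessions, 11401 were listed at 0 and 381 reached the minimum. Among the 381, 41 belonged to genes annotated as protein-coding, 8 had no gene record and 3 were further accessions of a gene already counted, which left 329 genes. The base mean is the mean over all libraries of reads divided by size factors, so it chose the members and is given only as a description. The fold change between the groups was not used to choose them.

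The groups were EGFR+vIII TLR2 KO, with 3 libraries, and EGFR+vIII, with 3 libraries. Both groups carried EGFR, a growth factor receptor, together with vIII, the mutant form of EGFR that lacks part of the outer domain and signals without ligand. TLR2 is an innate immune receptor at the cell surface. The labels give no clone number, knockout method, batch or time for either group, and do not state whether libraries of the same group were grown as separate cultures. The p-values therefore reflect how much these libraries varied, and that variation may be technical. The 6 libraries gave 1 table of the authors' own comparison, with no value per library. Levels per group are therefore given as implied means, worked out from the base mean and the fold change. They are approximate, since the deposited fold changes are drawn towards 0 where reads are few. All fold changes are EGFR+vIII TLR2 KO over EGFR+vIII, following the order of groups in the name of the authors' deposited table. That direction could not be checked on the targeted gene, because all 8 accessions of TLR2 were listed at 0. If it were the other way round, every direction below would reverse. The 329 members held 2.07% of the 11240272 normalized reads to which all base means add up. Of the astroglial and glioblastoma markers looked up, the authors' deposited table listed VIM at a base mean of 126476, NES at 540, CHI3L1 at 152, OLIG2 at 51.6 and CD44 at 26.7, and GFAP and S100B at 0. Of the markers of other cell types, PECAM1 stood at 159, CD68 at 42.6, EPCAM at 22.4, VWF at 13.5, KRT5 at 10.3 and SYP at 8.29 in the authors' deposited table, and PTPRC, CD14 and RBFOX3 at 0. NES, CHI3L1 and KRT5 rose (log2 fold changes 1.01, 3.01 and 1.83, per the authors' deposited table) and VIM fell (-0.29), and their part in the results below was not tested. Each marker value is that of the accession with the highest base mean, so it can lie below the level of the gene. Of the 8 accessions of CD44, 6 were listed at 0. A listing at or near 0 is not read here as absence of a transcript.

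Noncoding RNAs work without being translated. Ribosomal RNAs, the signal recognition particle RNA and small nucleolar RNAs (snoRNAs) are parts of stable machines, microRNAs pair through a short seed with messenger RNAs and repress them, and host genes carry snoRNAs or microRNAs in their introns or exons. Long noncoding RNAs (lncRNAs) act in many ways, as sponges for proteins, as scaffolds of nuclear bodies or by the act of transcription beside a coding gene. Pseudogenes are copies of coding genes that have lost the coding function and can still be transcribed.

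Several of the RNAs whose results follow are defined by short sequences, shown here to tell the transcripts and the products of the host genes apart. The RNA NORAD holds repeated elements bound by Pumilio proteins. The element TGTANATA was found 15 times in its 5339-base transcript in GENCODE 29 (GRCh38, chromosome 20, minus strand), against 9 times in the next highest of the 253 member transcripts searched. The searched transcripts were read on their own strand, and 48 of them (19%) held the element at least once. Overlapping matches were counted, and a match is a run of letters, not a measured binding site. The next lines give 3 of the NORAD matches with 10 bases on each side, the element in capitals.
NORAD, chr20:36050183-36050210 (minus strand): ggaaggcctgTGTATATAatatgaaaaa
NORAD, chr20:36048478-36048505 (minus strand): aataacacttTGTAAATAgcttttaaaa
NORAD, chr20:36047351-36047378 (minus strand): aatgctactgTGTATATAatggaaaact

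Among the genes named as microRNA hosts, 4 rose and 1 fell, and the mature microRNAs that lie within them are given 5′ to 3′ from RefSeq (GRCh38.p14), with the seed, bases 2 to 8, in capitals. MIR17HG, on chromosome 13, holds 6 microRNA genes. miR-17-5p and miR-20a-5p share a seed, and miR-19a-3p and miR-19b-3p share another.
hsa-miR-17-5p: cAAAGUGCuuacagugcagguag
hsa-miR-20a-5p: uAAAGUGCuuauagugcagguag
hsa-miR-18a-5p: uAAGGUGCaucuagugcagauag
hsa-miR-19a-3p: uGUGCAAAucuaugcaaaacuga
hsa-miR-19b-3p: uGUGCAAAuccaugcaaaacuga
hsa-miR-92a-3p: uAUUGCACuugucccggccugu

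MIR23AHG, on chromosome 19, holds 3 microRNA genes, each with a seed of its own. MIR550A3HG (chromosome 7) and MIR3945HG (chromosome 4) hold 1 microRNA gene each. The seed of miR-4458, in MIR4458HG on chromosome 5, is that of 10 other human mature microRNAs in the table, among them let-7a-5p, let-7b-5p and miR-98-5p.
hsa-miR-23a-3p: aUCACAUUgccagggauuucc
hsa-miR-27a-3p: uUCACAGUggcuaaguuccgc
hsa-miR-24-3p: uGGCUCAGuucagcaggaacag
hsa-miR-550a-3p: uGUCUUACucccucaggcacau
hsa-miR-3945: aGGGCAUAggagaggguugauau
hsa-miR-4458: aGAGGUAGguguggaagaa

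Of the 329 members, 36 rose and 56 fell in EGFR+vIII TLR2 KO cells at an adjusted p under 0.05 of the authors' deposited DESeq2 Wald test, and 237 did not pass. That is 28.0% called, against 23.5% of all 10303 accessions with an adjusted p and 39.5% of the 5130 accessions tested with a base mean of at least 50. The share that rose was 10.9% of members, against 11.6% of all accessions tested, and the share that fell was 17.0%, against 11.9%. Above the same minimum of 50, 18.2% of accessions rose and 21.2% fell. The median log2 fold change of the members was 0.03, against 0.02 over all accessions tested.

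The share called was about equal below a base mean of 200 and higher above it. From a base mean of 50 to 100, 34 of 155 members (21.9%) were called, against 21.8% of 600 protein-coding genes in the same range. From 100 to 200, 22.2% of 81 members were called, against 33.5% of protein-coding genes, and from 200 to 500, 38.2% of 55 members against 37.5%. Above 500, 19 of 38 members (50%) were called, against 47.4% of 2731 protein-coding genes, and 14 of those 19 fell. At the edge of the minimum, ADGRE4P, CCT6P1 and C1RL-AS1 lay just inside at 50.2, 50.2 and 50.3 by the authors' deposited table, and MAST4-AS1, SNORD29 and ADAM1A just outside with 49.9, 49.3 and 49.2. A member could pass the minimum through 1 group alone. In 47 members the implied mean was under 50 in 1 group, and 16 of them rose and 12 fell. Among the 282 with at least 50 in both groups, 20 rose and 44 fell.

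**Figure D1:**
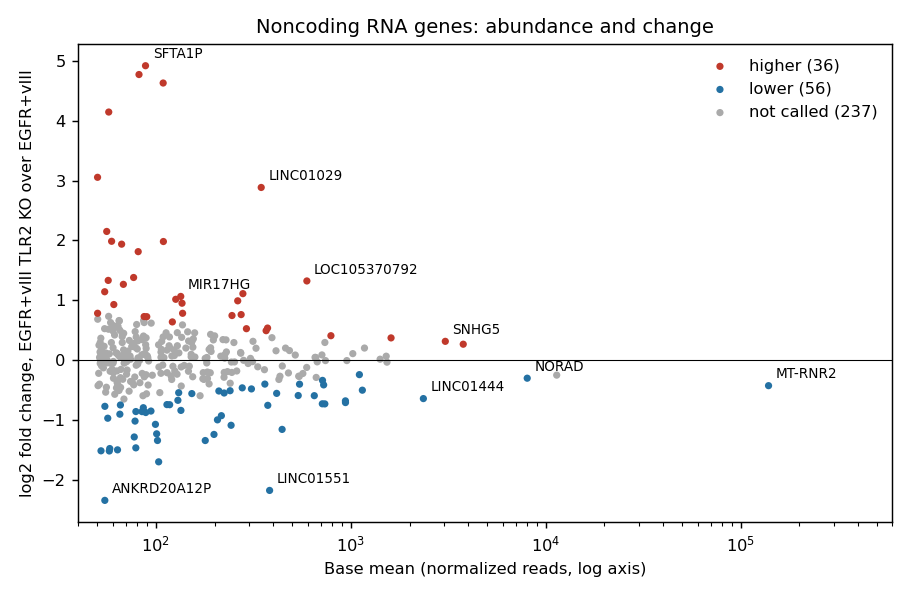
Each point is 1 of the 329 noncoding RNA genes, with its base mean in normalized reads on a log axis and its log2 fold change, EGFR+vIII TLR2 KO over EGFR+vIII. Red points rose (36), blue points fell (56) and grey points did not pass an adjusted p of 0.05 (237), and all rises above 3 on the log2 scale lie below a base mean of 200.

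The RNAs of the mitochondrial ribosome held most of the reads. MT-RNR2, the RNA of its large subunit, had an implied mean of 118444 in EGFR+vIII TLR2 KO cells, against 159268 in EGFR+vIII cells. In the authors' deposited table it fell by 0.43 on the log2 scale (SE 0.08, adjusted p 3.98e-07). MT-RNR1, the RNA of the small subunit, had implied means of 10385 in EGFR+vIII TLR2 KO cells and 12361 in EGFR+vIII cells, and its log2 fold change of -0.25 did not pass by the authors' deposited table (SE 0.11, adjusted p 0.0995). Together these 2 RNAs made up 64.5% of the members' reads.

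NORAD, a cytoplasmic lncRNA that binds Pumilio proteins through the elements shown above and is needed for genome stability, fell. Its implied mean was 7189 in EGFR+vIII TLR2 KO cells and 8867 in EGFR+vIII cells, and its log2 fold change was -0.30 by the authors' deposited table (SE 0.07, adjusted p 0.000395). LINC01444, a long intergenic RNA on chromosome 18, had implied means of 1838 in EGFR+vIII TLR2 KO cells and 2871 in EGFR+vIII cells, a fall of 0.64 in the authors' deposited table (SE 0.09, adjusted p 1.42e-10). FAM86DP, a pseudogene of a methyltransferase family, also fell (-0.50, SE 0.11, per the authors' deposited table). The reads of FAM86DP and of other near-identical copies may be split between them.

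Among the most abundant members, EBLN3P, a pseudogene derived from an ancient bornavirus nucleoprotein, rose (log2 fold change 0.27, SE 0.08, per the authors' deposited table), as did HTATSF1P2, a pseudogene of the splicing factor HTATSF1 (0.37, SE 0.09). FLJ32255, CENPBD2P, OTUD6B-AS1 and ANXA2P2 had log2 fold changes from -0.03 to 0.20 in the authors' deposited table and did not pass. Of the abundant nuclear-encoded members with a known transcript length, by reads per kilobase, SNHG5 (7095) stood above LINC01444 (3082), NORAD (1504), ANXA2P2 (1151) and EBLN3P (834).

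The largest rises belonged to RNAs that had few reads in EGFR+vIII cells. SFTA1P, a pseudogene of a surfactant-associated gene, had an implied mean of 171 in EGFR+vIII TLR2 KO cells, against 5.66 in EGFR+vIII cells (log2 fold change 4.92, SE 0.34, adjusted p 4.96e-46, per the authors' deposited table). LINC00707, a long intergenic RNA on the same chromosome, chromosome 10, had implied means of 158 in EGFR+vIII TLR2 KO cells and 5.79 in EGFR+vIII cells (4.77, SE 0.34, per the authors' deposited table). MIR3945HG had 209 in EGFR+vIII TLR2 KO cells and 8.46 in EGFR+vIII cells. LINC01446, on chromosome 7, had 108 in EGFR+vIII TLR2 KO cells and 6.13 in EGFR+vIII cells. In the authors' deposited table their log2 fold changes were 4.63 (SE 0.31) for MIR3945HG and 4.14 (SE 0.35) for LINC01446. These 4 RNAs stood above 100 normalized reads in EGFR+vIII TLR2 KO cells and below 10 in EGFR+vIII cells.

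LINC01029, on chromosome 18, was the most abundant of the large rises, with an implied mean of 611 in EGFR+vIII TLR2 KO cells and 82.7 in EGFR+vIII cells (log2 fold change 2.88, SE 0.17, adjusted p 4.04e-60, per the authors' deposited table). ADGRE4P, a pseudogene of an adhesion G protein-coupled receptor, had 89.6 in EGFR+vIII TLR2 KO cells and 10.8 in EGFR+vIII cells (3.05, SE 0.34, per the authors' deposited table). The other rises among the 12 largest were LINC02015 (2.15), OVAAL (1.98), RPLP0P2 (1.98), CHMP1B2P (1.94), LINC02714 (1.81) and LGALS17A (1.38), as log2 fold changes in the authors' deposited table. RPLP0P2 and CHMP1B2P are pseudogenes of a ribosomal stalk protein and of a membrane-remodelling protein, and LGALS17A is a galectin pseudogene. RPLP0, the parent of RPLP0P2, did not pass in the authors' deposited table (log2 fold change 0.31, SE 0.27). In 11 of the 12, the implied mean in EGFR+vIII cells was under the minimum of 50, the exception being LINC01029.

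The largest falls were smaller. ANKRD20A12P, a pseudogene of an ankyrin repeat family with many near-identical copies, had an implied mean of 18 in EGFR+vIII TLR2 KO cells and 91.4 in EGFR+vIII cells (log2 fold change -2.34, SE 0.32, per the authors' deposited table). LINC01551, on chromosome 14, had 139 in EGFR+vIII TLR2 KO cells and 627 in EGFR+vIII cells (-2.18, SE 0.15, adjusted p 1.87e-44, per the authors' deposited table). FAM86B2-DT had 48.6 in EGFR+vIII TLR2 KO cells and 158 in EGFR+vIII cells (-1.70, SE 0.26, per the authors' deposited table). Further log2 fold changes in the authors' deposited table were -1.52 for LOC101929470, -1.52 for ANKRD20A5P, -1.50 for FER1L4, -1.48 for ATE1OSP and -1.47 for LOC105274304. WFDC21P, a pseudogene of the whey acidic protein family, had 101 in EGFR+vIII TLR2 KO cells and 257 in EGFR+vIII cells (-1.34, SE 0.20, per the authors' deposited table). LOC100506730 had 118 in EGFR+vIII TLR2 KO cells and 279 in EGFR+vIII cells (-1.24, SE 0.20, per the authors' deposited table). In 8 of these 12, which include TP53TG1 and RN7SL3 described below, the implied mean in EGFR+vIII TLR2 KO cells was under 50.

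**Figure D2:**
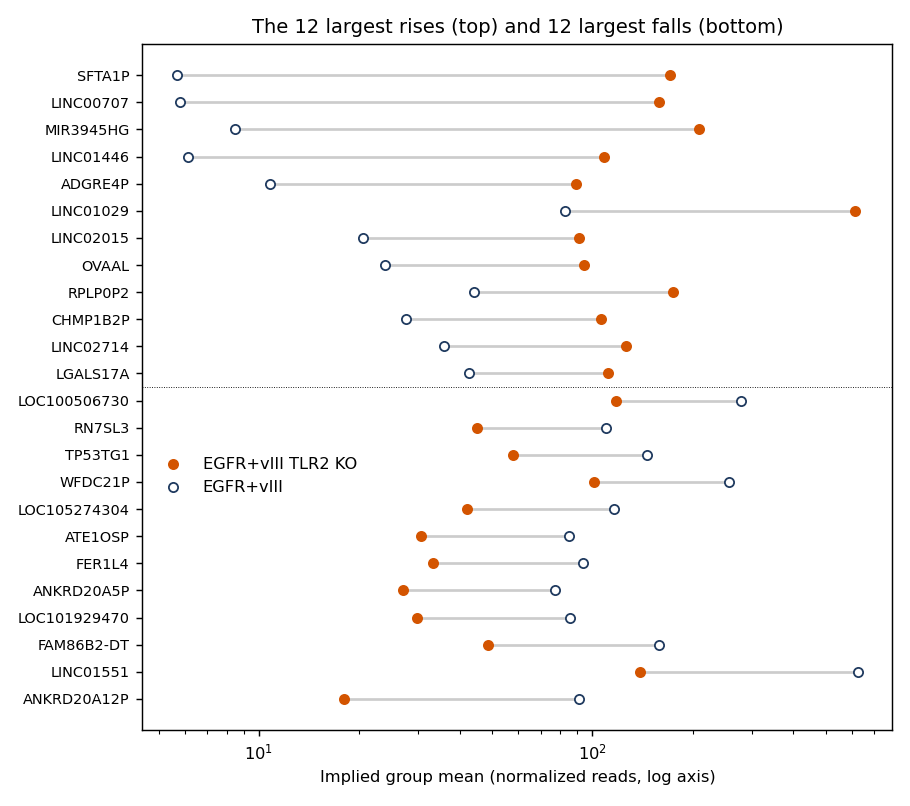
Implied group means in normalized reads, on a log axis, of the 12 members with the largest rise (top) and the 12 with the largest fall (bottom). Filled points are EGFR+vIII TLR2 KO and open points EGFR+vIII, with no error drawn because the table gives no value per library; SFTA1P stands at 171 against 5.66 and LINC01551 at 139 against 627.

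By class, long intergenic genes changed in both directions: 8 of 47 rose and 13 fell (44.7% called), with a median log2 fold change of 0.04, against 39.5% called among all accessions tested with a base mean of at least 50. Among 74 transcribed pseudogenes, 11 rose and 13 fell (32.4% called). Among 111 antisense, divergent and intronic genes, 5 rose and 14 fell (17.1% called), with a median of 0.01. Only counts are given, with no test between the classes and the rest. The same 39.5% is the share to set beside each count of class members below. It does not apply to list genes under the minimum, where calls were rarer. Of all 10303 accessions tested, 2417 were called, and 2026 of these calls fell among the 5130 with a base mean of at least 50. In the remaining 52 genes of no class, 4 rose and 9 fell.

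**Figure D3:**
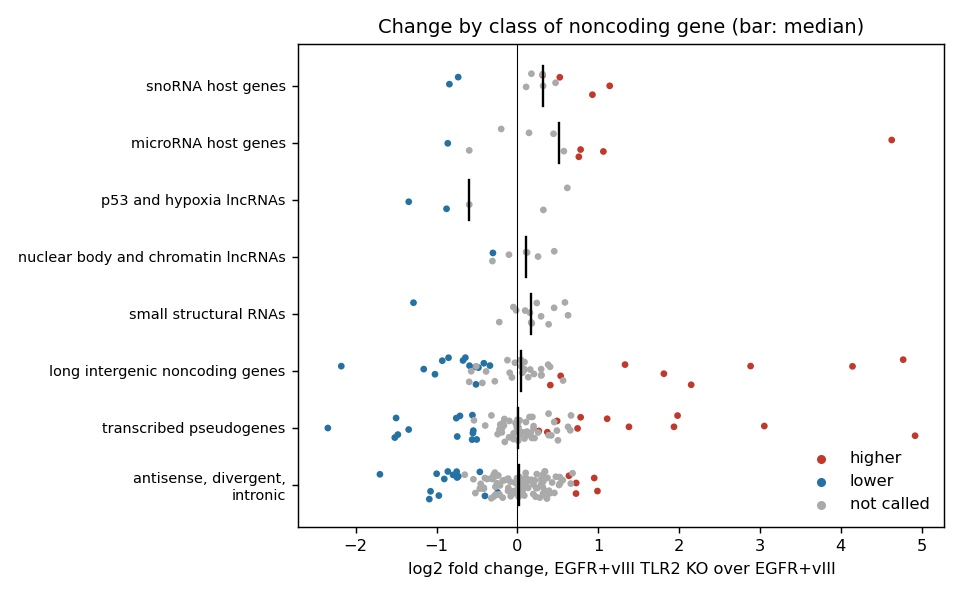
Log2 fold change of every member in 8 classes of noncoding gene, EGFR+vIII TLR2 KO over EGFR+vIII, with 1 point per gene, red for higher, blue for lower and grey for not called, spread vertically at random within a class. The black bar is the class median, 0.31 for snoRNA host genes and 0.51 for microRNA host genes; a gene can stand in more than 1 class.

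The snoRNA host genes are spliced RNAs whose introns release snoRNAs, and several are known to start with a run of pyrimidines, as do messenger RNAs of ribosomal proteins. Of 31 genes on the list, 11 were members, and 4 rose, 2 fell and 5 did not pass (54.5% called). SNHG5 had an implied mean of 3381 in EGFR+vIII TLR2 KO cells and 2721 in EGFR+vIII cells (log2 fold change 0.31, SE 0.11, adjusted p 0.0181, per the authors' deposited table). SNHG11 had 344 in EGFR+vIII TLR2 KO cells and 239 in EGFR+vIII cells (0.52, SE 0.15). SNHG7 had 79.7 in EGFR+vIII TLR2 KO cells and 41.9 in EGFR+vIII cells (0.93, SE 0.29). SNHG4 had 75.1 in EGFR+vIII TLR2 KO cells and 34.1 in EGFR+vIII cells (1.14, SE 0.30). The log2 fold changes of SNHG11, SNHG7 and SNHG4 are those of the authors' deposited table.

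The fallers were SNHG14 and SNHG18. SNHG14, an imprinted transcript that carries snoRNA clusters of the Prader-Willi region, had 553 in EGFR+vIII TLR2 KO cells and 918 in EGFR+vIII cells (-0.73, SE 0.13, adjusted p 6.78e-07, per the authors' deposited table). SNHG18 had 96.3 in EGFR+vIII TLR2 KO cells and 172 in EGFR+vIII cells (-0.84, SE 0.21, per the authors' deposited table). SNHG30, EPB41L4A-AS1, SNHG19, SNHG8 and DANCR had log2 fold changes from 0.11 to 0.47 in the authors' deposited table and did not pass, so 9 of the 11 values were above 0. SNHG31, a member named as a host gene but not on the list, had -0.36 (SE 0.28) in that table and did not pass. The starts of the 6 called host genes are shown from 20 bases before to 30 bases after the annotated start (RefSeq, GRCh38.p14), with a run of at least 6 C or T that begins within 5 bases of the start in capitals.
SNHG5, chr6:85678704-85678753 (minus strand): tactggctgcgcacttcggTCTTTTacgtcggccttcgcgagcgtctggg
SNHG11, chr20:38446634-38446683 (plus strand): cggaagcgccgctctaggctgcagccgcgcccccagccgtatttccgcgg
SNHG7, chr9:136728155-136728204 (minus strand): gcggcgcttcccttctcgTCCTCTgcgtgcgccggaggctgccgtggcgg
SNHG4, chr5:139274081-139274130 (plus strand): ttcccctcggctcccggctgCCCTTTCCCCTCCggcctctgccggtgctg
SNHG14, chr15:24823588-24823637 (plus strand): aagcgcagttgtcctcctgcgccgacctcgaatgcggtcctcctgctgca
SNHG18, chr5:9546180-9546229 (plus strand): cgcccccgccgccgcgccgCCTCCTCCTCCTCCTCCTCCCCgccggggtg

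Such a run was found in SNHG5, SNHG7, SNHG4 and SNHG18, and not in SNHG11 or SNHG14. Of the 11 snoRNA host genes, 6 (54.5%) had one, against 27 of the 174 other members with a promoter in the table (15.5%) and 14.8% of all 27305 promoters. SNHG31, not being on the list, is counted among the other members and had such a run. The run was found at starts of host genes that rose, of 1 that fell and of genes that did not pass. Of the 19 further host genes of the list in the table, all below the minimum, 8 were tested and did not pass, and 11 carried no adjusted p. All 12 accessions of SNHG1 were listed at 0 in the authors' deposited table, and the highest base mean among 15 accessions of GAS5 was 2.13.

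The snoRNAs themselves, which guide chemical changes of ribosomal and spliceosomal RNA, showed no call. The library kit is not given in the sources used here. Reads of a snoRNA that lies within a host gene therefore cannot be told apart from those of unspliced host RNA. None of the 12 snoRNAs passed at an adjusted p under 0.05 of the authors' deposited DESeq2 test, 2 had an unadjusted p under 0.05, and 10 of the 12 log2 fold changes were above 0, with a median of 0.21. The smallest adjusted p was that of SNORD47, which had an implied mean of 164 in EGFR+vIII TLR2 KO cells and 109 in EGFR+vIII cells (log2 fold change 0.59, SE 0.24, adjusted p 0.0525, per the authors' deposited table). SNORD47 and SNORD81 (0.39, SE 0.24, per the authors' deposited table) both lie in GAS5, of whose 15 accessions 12 were listed at 0, and the host gene carried no adjusted p. SNORA63, which lies in the translation factor gene EIF4A2, stood at 0.63 on the log2 scale (SE 0.31, adjusted p 0.145), against -0.02 (SE 0.09) for EIF4A2 in the authors' deposited table. SNORD36A lies in RPL7A, and their log2 fold changes were 0.10 (SE 0.20) and -0.14 (SE 0.28) in the authors' deposited table. The abundant SNORD3A, which acts in the first cuts of the ribosomal RNA precursor, had -0.22 (SE 0.29) in that table. Box C/D snoRNAs are recognised by their box C near the 5′ end and box D near the 3′ end, shown for 3 members from GENCODE 29 (GRCh38) with the box C core TGATG and the last CTGA in capitals.
SNORD36A, chr9:133350456-133350528 (plus strand): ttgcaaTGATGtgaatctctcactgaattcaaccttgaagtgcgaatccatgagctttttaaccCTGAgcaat
SNORD5, chr11:93733228-93733300 (minus strand): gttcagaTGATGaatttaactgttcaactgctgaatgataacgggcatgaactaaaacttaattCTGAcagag
SNORD2, chr3:186784796-186784864 (plus strand): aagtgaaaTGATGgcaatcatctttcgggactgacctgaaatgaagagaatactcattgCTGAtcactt

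RN7SL3, a copy of the signal recognition particle RNA, was the small structural RNA that fell. Its implied mean was 45.1 in EGFR+vIII TLR2 KO cells and 110 in EGFR+vIII cells (log2 fold change -1.28, SE 0.37, adjusted p 0.00369, per the authors' deposited table). It shares 97.7% of its bases with RN7SL1 and 96.0% with RN7SL2, so its reads cannot be assigned to 1 copy with certainty. MIR5047, a microRNA gene grouped with these RNAs by its symbol, did not pass in the authors' deposited table (log2 fold change -0.01, SE 0.29). RMRP, RPPH1, RN7SK and TERC had base means from 1.51 to 15.9 by the authors' deposited table and were not members.

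By name, 10 members were microRNA host genes, of which 4 rose and 1 fell (50% called, against 39.5% of accessions tested at the same minimum). By position, 3 further members held a mature microRNA, DANCR, TTC28-AS1 and PLEKHM1P1, and these 3 did not pass (adjusted p 0.568, 0.852 and 0.251, per the authors' deposited table). MIR17HG, the transcript of the growth-promoting cluster whose microRNAs are shown above, had an implied mean of 181 in EGFR+vIII TLR2 KO cells and 86.8 in EGFR+vIII cells (log2 fold change 1.06, SE 0.26, adjusted p 0.00043, per the authors' deposited table). MIR23AHG had 173 in EGFR+vIII TLR2 KO cells and 101 in EGFR+vIII cells (0.78, SE 0.22, per the authors' deposited table). MIR550A3HG had 344 in EGFR+vIII TLR2 KO cells and 203 in EGFR+vIII cells (0.76, SE 0.17, per the authors' deposited table). MIR4458HG, host of the microRNA with the let-7 seed, had 60.2 in EGFR+vIII TLR2 KO cells and 109 in EGFR+vIII cells (-0.86, SE 0.25, adjusted p 0.00427, per the authors' deposited table). MIR4453HG, MIR924HG, MIR4435-2HG, MIR600HG and MIR34AHG had log2 fold changes from -0.60 to 0.58 in the authors' deposited table and did not pass. Mature microRNAs were not measured. MIR100HG lay just under the minimum, with a base mean of 41.8, and rose (log2 fold change 1.69, adjusted p 2.75e-06, per the authors' deposited table). In all, 61 microRNA host genes lay below the minimum, of which 2 rose, 1 fell, 12 did not pass and 46 carried no adjusted p. The 39.5% does not apply to these genes.

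**Figure D4:**
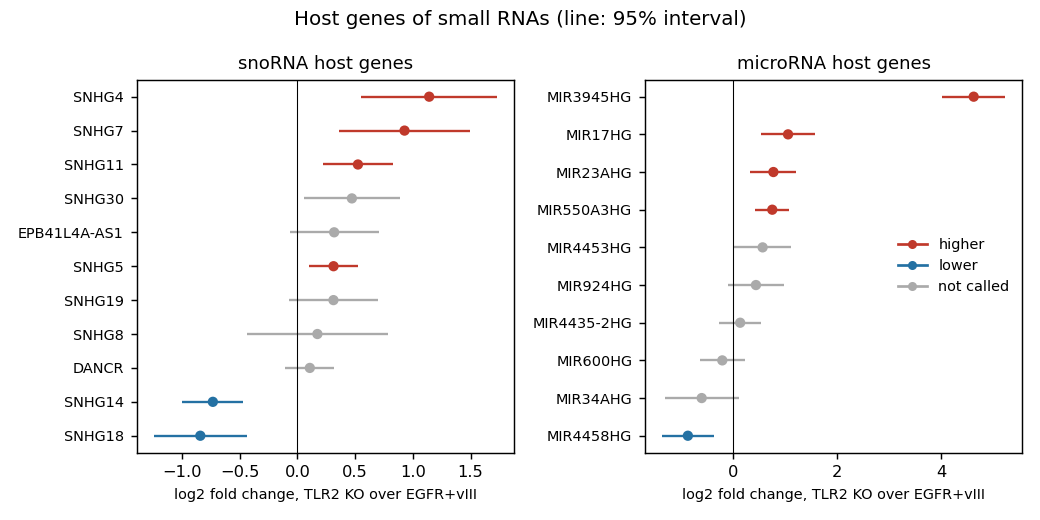
Log2 fold change, EGFR+vIII TLR2 KO over EGFR+vIII, of the 11 snoRNA host genes (left) and 10 microRNA host genes (right) with 95% intervals from the deposited SE. Red genes rose, blue genes fell and grey genes did not pass, and the horizontal scales of the panels differ because MIR3945HG reached 4.63.

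The lncRNAs of the p53 and hypoxia responses held 5 members, of which 2 fell and 3 did not pass. The share called, 40%, was near the 39.5% of accessions tested with a base mean of at least 50. TP53TG1, a p53-induced RNA, had an implied mean of 57.6 in EGFR+vIII TLR2 KO cells and 146 in EGFR+vIII cells (log2 fold change -1.34, SE 0.26, adjusted p 2.87e-06, per the authors' deposited table). PURPL, a p53-induced RNA that restrains p53, had 62.5 in EGFR+vIII TLR2 KO cells and 115 in EGFR+vIII cells (-0.88, SE 0.29, per the authors' deposited table). MIR34AHG, the p53-induced host of miR-34a, did not pass (-0.60, SE 0.36, adjusted p 0.264, per the authors' deposited table), nor did NUTM2A-AS1 (0.32) or LUCAT1 (0.62). Below the minimum, the 39.5% does not apply. Of 10 genes of the list there, 2 fell, 6 did not pass and 2 carried no adjusted p. The fallers, LNCTAM34A, which lies beside miR-34a, and MIR210HG, host of the hypoxia microRNA, had base means of 17.1 and 33.1. By the authors' deposited table they fell by 1.27 and 0.85 on the log2 scale.

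Of the 4 inflammation and interferon lncRNAs that were members, MIR3945HG rose, and LUCAT1, HEIH and MIR4435-2HG did not pass. That is 25% called, against 39.5% of accessions tested at the same minimum. The list was drawn up with earlier results of these data known, so the count is only a description. LUCAT1, a feedback regulator of interferon responses, had an implied mean of 115 in EGFR+vIII TLR2 KO cells and 74.6 in EGFR+vIII cells (0.62, SE 0.26, adjusted p 0.0723, per the authors' deposited table). NKILA and WAKMAR2, lncRNAs tied to NF-kB signalling, had base means of 13.2 and 16.1, and by the authors' deposited table did not pass (log2 fold changes -0.87 and 0.84). THRIL, NRAV and CHROMR, members named after their values were seen, had log2 fold changes of -0.01, 0.08 and -0.06 in the authors' deposited table and did not pass.

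Among the 7 members of the list of nuclear body and chromatin lncRNAs, NORAD was called and the rest were not (14.3% called, against 39.5% at the same minimum). NORAD is counted here because the list holds it, although it is cytoplasmic as described above. The call is therefore not one of a nuclear body or chromatin RNA. NEAT1, the scaffold of paraspeckles, had an implied mean of 112 in EGFR+vIII TLR2 KO cells and 94.1 in EGFR+vIII cells (0.26, SE 0.25, per the authors' deposited table), and this value rests on 1 of its 2 accessions, the other being listed at 0. PVT1, the neighbour of MYC, had -0.31 (SE 0.18), KCNQ1OT1, the imprinted silencing RNA, 0.12 (SE 0.23), and HOTAIRM1, of the HOXA cluster, 0.46 (SE 0.22), as log2 fold changes in the authors' deposited table. MALAT1 was listed at 0 on all of its 3 accessions and TUG1 on all of its 4. Of the imprinted genes, SNHG14 fell, while IPW, which comes from the same region, did not pass (-0.37, SE 0.26, per the authors' deposited table). Of 15 imprinted genes of the list below the minimum, 2 rose, 1 fell, 4 did not pass and 8 carried no adjusted p. The 39.5% does not apply to these 15. PWAR5, of the Prader-Willi region, had a base mean of 39.8 and fell by 0.89 (log2, adjusted p 0.0252) by the authors' deposited table. MEG3 and MEG8, maternally expressed, with base means of 25.8 and 21.5, rose by 1.60 and 1.51 (log2) by the authors' deposited table. Both HOX cluster members, HOTAIRM1 and HOXD-AS2 (-0.06, SE 0.30), did not pass.

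Antisense and divergent genes were set beside the coding gene in their name. For 111 such members, the partner was tested for 55, was listed at 0 or carried no adjusted p for 54, and could not be looked up for 2. The strand used in counting is not given in the sources used here, so reads of a gene and its antisense partner cannot be told apart where the genes overlap. Of the 8 called members with a tested partner, COX10-DT rose (0.73) with COX10 (0.38), which makes heme A for cytochrome oxidase, and WAC-AS1 fell (-0.73) with WAC (-0.92), each as log2 fold change per the authors' deposited table. GALNT9-AS1 rose while GALNT9, a glycosyltransferase of mucin-type sugars, fell, with log2 fold changes of 0.95 (SE 0.22) and -1.07 (SE 0.19) in the authors' deposited table. HAS2-AS1 fell (-1.07, SE 0.25), and HAS2, a hyaluronan synthase with a base mean of 2034, stood at 0.01 (SE 0.09) in the authors' deposited table. In the other 4 pairs the partner did not pass. Across the 55 pairs the log2 fold changes had a Pearson correlation of 0.06 and a Spearman correlation of 0.13, a description over genes that share libraries. Each partner was read from its accession with the highest base mean, so its other transcripts are left out. Some of these accessions had few reads, such as that of NIPBL at a base mean of 5.13, where fold changes are drawn towards 0. The correlations therefore cannot show whether pairs changed together.

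Some members lay beside a coding gene that changed as well. The nearest tested coding gene within 100 kb was found for 20 of the 36 members that rose, and 6 of these neighbours rose and 2 fell. It was found for 34 of the 55 placed members that fell, and 3 of these neighbours rose and 8 fell. For members that were not called, 18 of 176 neighbours rose and 19 fell. SNHG18 and SEMA5A, an axon guidance semaphorin, lie 125 bases apart, and SEMA5A fell by 2.06 on the log2 scale (SE 0.09, adjusted p 4.05e-113, per the authors' deposited table).

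LOC105274304 overlaps MXRA7, and the pair had log2 fold changes of -1.47 (SE 0.27) and -1.16 (SE 0.09) in the authors' deposited table. LOC105370792 overlaps EHD4, a gene of endocytic recycling, and the pair had 1.32 (SE 0.13) and 0.93 (SE 0.09) in the authors' deposited table. As for the antisense pairs, reads of overlapping genes cannot be told apart here, since the counting strand is not given. LOC100288175 lies 45.2 kb from ISG15, an interferon-induced ubiquitin-like protein, and the authors' deposited table gives both a log2 fold change of 1.02, with SEs of 0.24 and 0.29. Members also fell beside genes that did not pass or that rose: RPSAP52, antisense to the chromatin protein gene HMGA2, fell by 0.71 (SE 0.12), against 0.16 (SE 0.07, adjusted p 0.0797) for HMGA2 in the authors' deposited table. NFKB1-AS1 fell by 0.86, and the nearest tested coding gene, SLC39A8, a metal ion transporter 73.1 kb away, rose by 0.72 (SE 0.26, adjusted p 0.03), both per the authors' deposited table. NFKB1 itself carried no adjusted p.

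**Figure D5:**
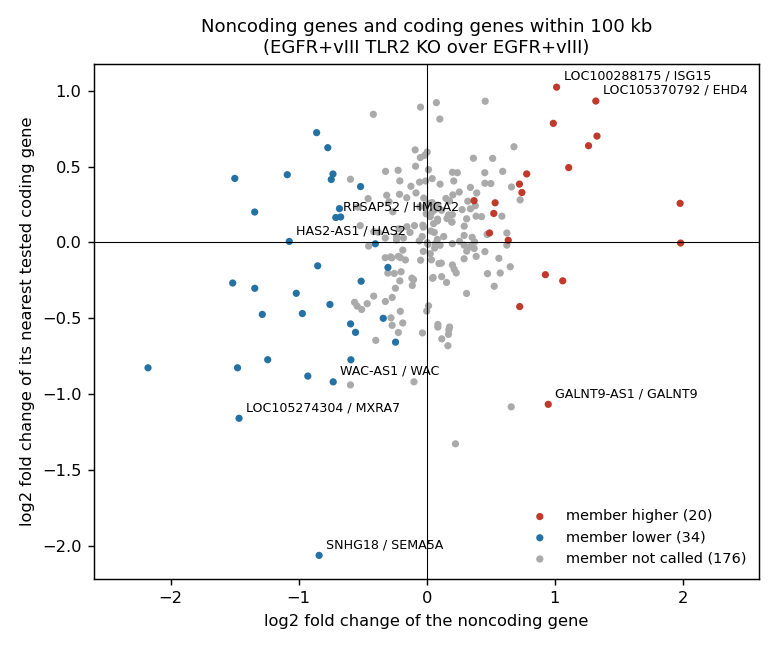
Log2 fold change of 230 noncoding genes (horizontal) and of the nearest tested coding gene within 100 kb (vertical), EGFR+vIII TLR2 KO over EGFR+vIII, with red for members that rose (20), blue for members that fell (34) and grey for members not called (176). SNHG18 with SEMA5A and LOC105274304 with MXRA7 lie at the lower left, and GALNT9-AS1 with GALNT9 at the lower right.

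Among the pseudogenes, a coding parent named by the symbol was tested for 26 of 42, and 7 of these 26 were called. PDIA3P1 fell (-0.56, SE 0.14) with its parent PDIA3 (-0.33, SE 0.07), a disulfide isomerase, in the authors' deposited table. DUXAP8 fell (-0.54, SE 0.20) while its parent DUXA, a homeobox gene, rose (2.32, SE 0.38) in the authors' deposited table. The other 5 parents did not pass. HTATSF1 (0.39), ZSCAN12 (0.86), MSL3 (0.39) and RPLP0 (0.31) had the sign of their pseudogene in the authors' deposited table, and BMS1 (0.20) had the opposite sign. The base means of HTATSF1 and ZSCAN12 were 39.9 and 30.6, so a change in them would be hard to call. These values are each from the highest accession, of 2 for HTATSF1 and 9 for ZSCAN12. MT1L, a metallothionein pseudogene, had an implied mean of 279 in EGFR+vIII TLR2 KO cells and 471 in EGFR+vIII cells (-0.76, SE 0.15, per the authors' deposited table), and it has close coding copies with which it can share reads.

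Promoters of 300 bases were searched on both strands, in which 185 members had an entry. Entries covered 17 of the 36 members that rose and 31 of the 56 that fell. SFTA1P, LINC00707, MIR3945HG and LINC01446, the largest rises, had no entry and were not searched. The NF-kB consensus was found in 2 of 17 promoters of members that rose, 1 of 31 of members that fell and 10 of 137 of members not called, against 5.72% of all 27305 promoters. The AP-1 element TGANTCA was found in 1, 0 and 19 of them in that order, against 7.72% of all promoters. The interferon response core GAAANNGAAA was found in 1, 1 and 5 of them, against 3.66%.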

How the data were processed

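RNA of U87 cells was sequenced in 6 libraries, which the authors compared in 1 deposited table. The submitters' processing notes name STAR, DESeq2 and hg38 with no version. For the library kit, the counting strand and the annotation release, nothing is given in the sources used here. Per the file headers, each line of the deposited table holds a base mean (a signal of abundance), a log2 fold change with its SE, a Wald score, a p-value and an adjusted p. The Wald score equals the fold change over its SE (largest gap 5.39e-07), and the adjusted p follows Benjamini and Hochberg over 10303 accessions. The largest SE, 0.38, shows that log2 fold changes were drawn towards 0.

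Of the members, 325 were named from RefSeq (GRCh38.p14) and 4 from GENCODE 29. Calls are the authors' deposited adjusted p under 0.05. Implied means divide the base mean between equal groups by the fold change. Neighbours are the nearest coding genes with an adjusted p within 100 kb. Partners, neighbours, parents and snoRNA hosts were each read from the accession with the highest base mean. Of 6668 promoter starts shared with GENCODE 29, 6660 matched its transcript. The test against a 1.5-fold change was tested on simulated data, in which fold changes were not drawn towards 0 as the deposited ones were. That simulation therefore cannot show how the test behaves where reads are few. Scripts used Python 3 with pandas, scipy and Biopython. The members and lists were chosen with earlier results of these data known. Genes were named by a fixed rule: the 12 most abundant, the 12 largest rises and falls, all members of lists of up to 25, the edge of the minimum, partners, hosts and neighbours of these. List genes under the minimum, MT1L, THRIL, NRAV, CHROMR, and the further members set beside a partner, neighbour or parent were named after their values were seen. The count test planned for counts per library was replaced by the deposited test. Depth per library is unknown. The alternatives were other thresholds, another null, rescaled Wald scores, other adjustment, other minimums and other gene selections.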

Additional observations from a re-analysis of the deposited data

How the results depend on the processing

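The count of 92 noncoding genes called (36 higher, 56 lower) stayed within 1.5 times, in each direction, at an adjusted p under 0.01, with adjustment over all accessions with a p-value, with every NR_ accession counted, with protein-coding genes kept and with pseudogenes left out. Against a change of more than 1.5-fold, 22 passed, 13 higher and 9 lower. Of these, 10 of the 13 and 5 of the 9 had an implied mean under 50 in 1 group, which leaves 3 higher and 4 lower. With Wald scores divided by their own central spread of 1.75, 35 passed, 15 higher and 20 lower, and 18 of the 42 called genes among the 81 members covered by the naming rule lost their call, among them NORAD, SNHG5, MIR17HG and MIR23AHG. The stricter null took the call from 23 of the 42, MT-RNR2 and TP53TG1 included. With a base mean minimum of 100, 58 of 174 passed, 20 of them higher, and with a minimum of 20, 58 rose and 69 fell of 581. With an implied mean of at least 50 in both groups, an alternative chosen after seeing the data, 20 rose and 44 fell. The direction of no gene depends on these settings, since each uses the deposited fold change. No paired analysis was possible because the table gives no value per library, and leaving out single replicates and the replicate block were not run for that reason. Members with a base mean below 100 were called in 21.9% of cases and those from 100 to 200 in 22.2%; the part of depth was not tested.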

Other observations

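By chromosome, the members on chromosome 10 had a median log2 fold change of -0.34, with 2 of 20 higher and 6 lower, against a median of 0.00 over the 196 tested accessions of that chromosome with a base mean of at least 50, of which 25 were higher and 50 lower. On chromosome 18, the median was -0.22 for 11 members, with 1 higher and 3 lower, and -0.24 for all 103 such accessions, of which 7 were higher and 39 lower. On chromosome 6, 4 of 10 members were higher and 1 lower, with a median of 0.34, against 0.05 over 240 accessions, of which 59 were higher and 40 lower. These chromosomes were singled out after their values were seen, and no test was made.

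Of the 8 accessions that reached the minimum without a gene record, 4 were called. The minimum was reached by 3.81% of 7606 genes with 1 accession, 3.80% of 920 genes with 2 to 4 and 4% of 100 genes with 5 or more.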
